A study of Mus musculus with 10 samples.

Results

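Krt4, Lce3f, Defb4, Dnaic1, Epcam and Cldn7 are 6 genes of epithelia and cilia, and their 9 probe sets were followed through mouse liver in which cholesterol and fatty acid synthesis had been switched down or up. They are 6 of 5928 genes and 9 of 11868 tested probe sets. The first 4 genes were selected on their measured levels, being higher in livers lacking SCAP than in wild-type controls, so their values in that comparison are a description and carry no test. Epcam and Cldn7 were taken as reference genes of epithelial cells, and every probe set annotated to the 6 genes was kept.

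Liver RNA was measured on the Affymetrix MG_U74Cv2 array in 5 groups of male mice. The Scap-/- group held Scap-/-;MX1-Cre mice, in which Scap is deleted in liver, and the Scap wild type group the corresponding wild-type mice. Both were 10 to 12 weeks old, ate Teklad chow and had 4 injections of polyinosinic-polycytidylic acid, an inducer of the Cre recombinase, with livers taken 14 days after the last. The TgSREBP-1a and TgSREBP-2 groups carried transgenes for the active nuclear form of human SREBP-1a or SREBP-2. They and their littermates, the SREBP wild type group, were 12 to 16 weeks old. For 2 weeks they ate a diet high in protein and low in carbohydrate, which raises expression of the transgenes. RNA of 5 mice per group was pooled to 20 µg, and each pool was hybridised to 2 arrays. The p-values below thus cover differences among arrays of a pool and not among mice. MX1-Cre is driven by an interferon-responsive promoter that is not restricted to hepatocytes, and whether the wild-type mice carried it is not given in the sources used here.

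SCAP is the escort protein that carries SREBP-1 and SREBP-2 from the endoplasmic reticulum to the Golgi, where the active transcription factors are cut free, so liver without SCAP lacks nuclear SREBPs and the transgenic livers have them in excess. Krt4 encodes an intermediate filament protein of stratified squamous epithelium such as oesophagus. Lce3f encodes a late cornified envelope protein of skin, and Defb4 a secreted antimicrobial peptide of mucosal surfaces. Dnaic1, now called Dnai1, encodes an intermediate chain of the outer dynein arm that drives motile cilia. In liver, Epcam, a cell adhesion protein, and Cldn7, a tight junction protein, are known from bile duct cells rather than hepatocytes. In RNA from whole liver, fewer cells of a type and less RNA per cell cannot be told apart.

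All levels are log2 values after RMA, a method that subtracts background, brings arrays to a common scale and combines the probes of each set. Probe sets differ in how brightly they bind, so a level is compared between groups and not between genes. Array medians lay between 4.69 and 4.77, the median absolute difference between duplicates was 0.11 to 0.13, and duplicates correlated at 0.992 to 0.995. The liver label was checked on hepatocyte markers: Hpx, encoding hemopexin, read 10.12 to 11.16 and Fga, encoding the fibrinogen alpha chain, 8.34 to 9.85 over the 10 arrays, all above the array medians. Of the 16 measured genes of the hepatocyte list, 14 lay above the array median on all 10 arrays. The other 2, Ahsg and Serpina1a, lay below it on all 10. Of the 16 genes, 7 were put in the list with results of these data known, so the count is a description. No tested probe set is annotated to Scap, Srebf1 or Srebf2, so the genotypes were not checked from the targeted genes.

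Promoter sequences are shown for the ciliary member and the cornified envelope member, which had the largest increases in Scap-/-. That of Epcam is shown because its probe set 170480_at, though not its others, was called lower with SREBP-1a. Each is the 250 bases before the gene's start in RefSeq on GRCm38.p6, plus strand, at chr4:41569544-41569793 for Dnaic1, chr3:92991967-92992216 for Lce3f and chr17:87635729-87635978 for Epcam. Capitals mark a match to the X-box bound by RFX factors, which are known regulators of cilium genes.
Dnaic1: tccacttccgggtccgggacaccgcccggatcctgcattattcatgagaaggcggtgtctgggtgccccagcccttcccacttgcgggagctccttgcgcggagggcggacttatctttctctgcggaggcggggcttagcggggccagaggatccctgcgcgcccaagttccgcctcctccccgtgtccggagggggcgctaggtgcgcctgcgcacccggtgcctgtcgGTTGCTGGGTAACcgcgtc
Lce3f: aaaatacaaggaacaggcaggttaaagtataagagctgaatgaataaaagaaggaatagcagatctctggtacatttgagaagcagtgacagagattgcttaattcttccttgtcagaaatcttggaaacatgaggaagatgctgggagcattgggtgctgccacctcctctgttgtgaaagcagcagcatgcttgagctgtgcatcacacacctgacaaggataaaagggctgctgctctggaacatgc
Epcam: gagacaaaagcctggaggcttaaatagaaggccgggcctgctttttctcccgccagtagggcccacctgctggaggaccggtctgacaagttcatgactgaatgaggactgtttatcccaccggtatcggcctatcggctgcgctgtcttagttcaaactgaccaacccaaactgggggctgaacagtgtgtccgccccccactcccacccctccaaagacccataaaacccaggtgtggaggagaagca

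The 3 promoters differ in base composition. Over windows of 300 bases, from 250 before to 50 after the start, Dnaic1 had 67% G and C with 27 CpG dinucleotides, Epcam 57% with 11, and Lce3f 45.7% with 0, against a median of 52.7% over 32851 windows. Of the 6 genes, 4 matched the RefSeq promoter table, Cldn7 with 2 windows, while Krt4 and Defb4 are named only. Both strands were searched for 4 motifs. The X-box, searched as GTNNCCNGNAAC with 0 to 3 further N before the last G, lay on the minus strand 19 to 7 bases before the start of Dnaic1 and was found in 5.25% of all windows. The E-box CACGTG, which SREBPs can also bind, lay 31 to 36 bases after the start of Epcam and was found in 7.15% of windows. The sterol regulatory element TCACNCCAC (1.24% of windows) and the TATA box TATAAA (13.6%) were in none of the 5 windows of these genes. A match is a run of letters and not a bound site, and a missing match says only that these letters are not in the window.

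Dnaic1, the cilium motor gene, had the largest increase of all tested probe sets in Scap-/- over Scap wild type liver. Its probe set 166293_f_at read 5.32 and 4.87 on the Scap-/- arrays, 3.45 and 3.47 in Scap wild type, 3.32 and 3.23 in SREBP wild type, 2.99 and 3.03 in TgSREBP-1a, and 3.65 and 3.32 in TgSREBP-2. Both Scap-/- arrays stood above the other 8. Scap-/- and Scap wild type arrays did not overlap for 29.7% of all probe sets, and the 4 genes were picked on this contrast, so their separation here is no finding. The Scap-/- mean of 5.09 ± 0.32 (SD, n = 2) was 1.63 above the Scap wild type mean of 3.46 ± 0.02, a 3.10-fold difference. Relative to the array medians, Dnaic1 stood at 0.36 in Scap-/- and at -1.28 in Scap wild type, or above 56.8% and 23.2% of tested probe sets. The Scap-/- duplicates differed by 0.46, more than those of 95.4% of probe sets, while the Scap wild type duplicates differed by 0.02. Below Scap-/-, the order was TgSREBP-2, Scap wild type, SREBP wild type and TgSREBP-1a, with the arrays of TgSREBP-2 and Scap wild type overlapping.

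Lce3f, the cornified envelope gene, had the second largest increase in Scap-/- and the poorest duplicate agreement of the 6 genes. Its probe set 165956_f_at read 5.26 and 4.37 in Scap-/-, 3.18 and 3.22 in Scap wild type, 3.86 and 3.95 in SREBP wild type, 3.81 and 3.81 in TgSREBP-1a, and 3.53 and 4.07 in TgSREBP-2. Both Scap-/- arrays were again above the other 8, but the lower of them was only a little above the higher TgSREBP-2 array. The Scap-/- mean was 4.81 ± 0.63 (SD, n = 2) against 3.20 ± 0.03 in Scap wild type, a difference of 1.61 or 3.05-fold. The gap of 0.89 between the Scap-/- duplicates exceeded that of 99.8% of probe sets, and in TgSREBP-2 the gap of 0.54 exceeded that of 98.7%. Relative to the array medians, Lce3f stood at 0.08 in Scap-/- and at -1.54 to -0.85 in the other 4 groups. Scap wild type had the lowest of the 5 means.

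Defb4, the antimicrobial peptide gene, was dim throughout. Its probe set 165820_at read 3.92 and 3.71 in Scap-/-, 2.91 and 2.99 in Scap wild type, 3.25 and 3.39 in SREBP wild type, 3.05 and 3.17 in TgSREBP-1a, and 3.27 and 3.21 in TgSREBP-2. The Scap-/- arrays were the highest and the Scap wild type arrays the lowest of the 10. The means were 3.82 ± 0.15 and 2.95 ± 0.06 (SD, n = 2), a difference of 0.87 or 1.82-fold, with duplicates 0.21 and 0.08 apart. Every group mean was below the array median, at -0.91 relative to it in Scap-/- and at -1.79 to -1.43 elsewhere. Between the other groups only SREBP wild type and TgSREBP-2, neighbours in the order, had overlapping arrays.

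Krt4, the squamous keratin, had the closest Scap-/- duplicates of the 4 picked genes. Its probe set 167079_f_at read 5.86 and 5.83 in Scap-/-, 4.93 and 5.07 in Scap wild type, 5.24 and 5.49 in SREBP wild type, 4.78 and 4.92 in TgSREBP-1a, and 4.84 and 4.93 in TgSREBP-2. Scap-/- was highest, SREBP wild type came next, and the transgenic groups overlapped at the bottom. The Scap-/- mean of 5.84 ± 0.03 (SD, n = 2) was 0.84, or 1.79-fold, above that of Scap wild type at 5.00 ± 0.10. Krt4 lay above the array median in all 5 groups, by 1.11 in Scap-/- and by 0.12 to 0.61 in the others.

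**Figure D1:**
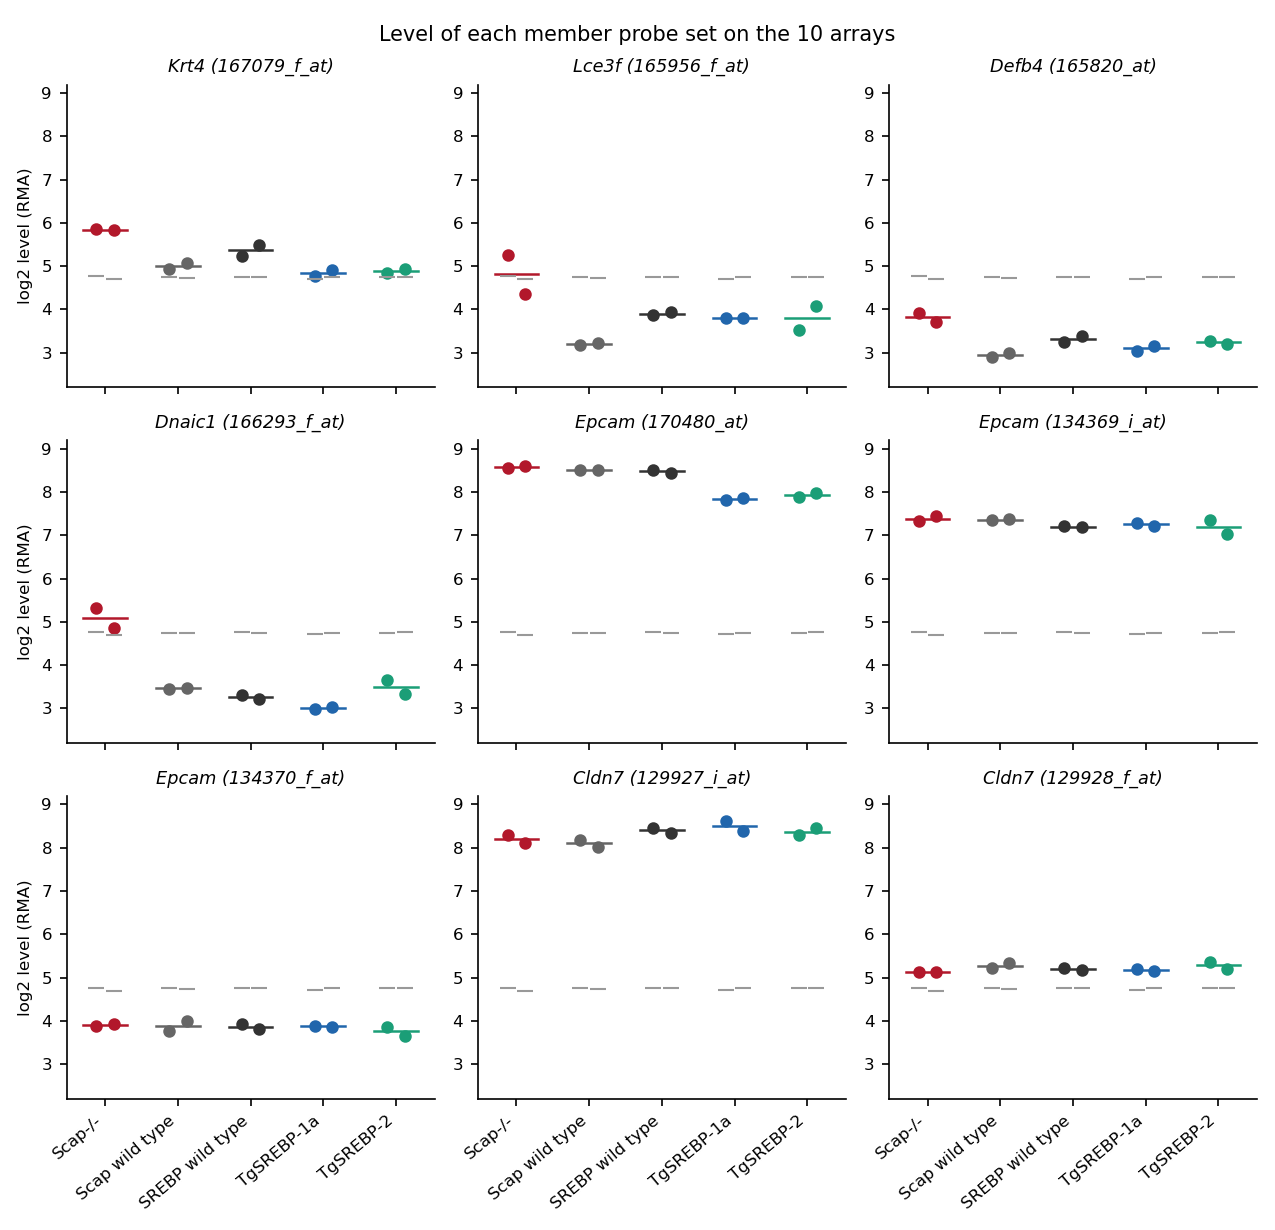
Log2 level (RMA, vertical axis) of each of the 9 probe sets on the 10 arrays, by group. Dots are arrays, with replicate 1 on the left, coloured bars are group means and grey dashes are the medians of the arrays. The Scap-/- dots of Krt4, Lce3f, Defb4 and Dnaic1 stand above the other 8, and the dots of Epcam 170480_at are lower in both transgenic groups.

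The Scap differences also depend on where the control lies, and for Krt4, Lce3f and Defb4 the Scap wild type mean was below that of SREBP wild type. Scap wild type minus SREBP wild type was -0.36 for Krt4, -0.70 for Lce3f, -0.37 for Defb4 and 0.19 for Dnaic1. These values are a description, since the Scap wild type arrays entered the choice of the genes, which favours a low level there. Over all probe sets, 0.0927% were called between the wild-type groups. Diet, age, injections and study differ between these groups and cannot be told apart. Scap-/- means were 0.48, 0.91, 0.49 and 1.61 above the next highest group for Krt4, Lce3f, Defb4 and Dnaic1.

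In the order of increases in Scap-/-, Dnaic1 and Lce3f ranked 1 and 2 of 11868 probe sets, and Defb4 and Krt4 ranked 8 and 9. Among genes that were not picked, Lce3a, another late cornified envelope gene, ranked 3 with a difference of 1.56, and Nudt3, ranked 10, had 0.70. Abhd2, Cyp2c55 and Ifi27l2b ranked 4, 5 and 6, with differences of 1.13, 0.98 and 0.96. Of these, Ifi27l2b was called (limma adjusted p 0.00783), and Abhd2 and Cyp2c55 were not. Lce3a read 5.31 and 4.29 in Scap-/- and 3.16 and 3.33 in Scap wild type, so its Scap-/- duplicates were split in the same order as those of Lce3f and Dnaic1.

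Epcam and Cldn7, the reference genes of bile duct and other epithelia, were near their control levels in Scap-/-. Epcam 170480_at read 8.56 and 8.60 in Scap-/- and 8.51 and 8.52 in Scap wild type, a difference of 0.07. Its other probe sets differed by 0.03 and 0.03. Cldn7 129927_i_at read 8.29 and 8.11 in Scap-/- and 8.19 and 8.02 in Scap wild type, a difference of 0.09 with overlapping arrays. Cldn7 129928_f_at read 5.13 and 5.12 against 5.23 and 5.33, a difference of -0.15. No test is given for these values, since they come from the contrast on which the 4 genes were picked.

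The probe sets of a reference gene differed in brightness. Epcam 170480_at lay 3.12 to 3.85 above the array median and 134369_i_at 2.44 to 2.66 above it, while all 5 group means of 134370_f_at lay below it. Cldn7 129927_i_at lay 3.36 to 3.77 above the median and 129928_f_at 0.39 to 0.54 above. Of the picked genes, Krt4, Lce3f and Dnaic1 are each read by 1 probe set with the suffix _f_at, which marks probes that may match more than 1 transcript of a family and is carried by 9.19% of tested probe sets. Defb4 is read by a plain _at probe set, as 63.1% are.

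Other genes of the same epithelial and ciliary programmes were measured beside the picked ones. Over the whole array 10 of 11868 probe sets (0.0843%) were called between Scap-/- and Scap wild type, meaning an adjusted p under 0.05 in limma with Benjamini-Hochberg adjustment and a difference of at least 1.5-fold. At an unadjusted p under 0.05 there were 451. The median difference over all probe sets was 0.00. The 10 called probe sets include those of the picked genes, whose calls are no test since the genes were picked on this contrast. Beyond the picked genes, none was called in the lists of keratins, cornified envelope, or defensins and antimicrobials. The same held for motile cilium axoneme, intraflagellar transport and BBSome, claudins and tight junction, and epithelial adhesion.

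Among keratins, the 10 genes other than Krt4 ranged from -0.31 to 0.37 with a median of -0.06. The largest was Krt14, a basal cell keratin, which read 2.93 and 2.88 in Scap-/- and 2.57 and 2.50 in Scap wild type. Among cornified envelope genes, the 8 others had a median of 0.15, with 6 of 8 above 0, led by Lce3a at 1.56. Lce3b, the remaining Lce3 gene of the list, differed by 0.33, and Tgm1, the transglutaminase that crosslinks the envelope, by 0.27. Among defensins and antimicrobial genes, the 12 others had a median of -0.02 and lay between -0.26 and 0.34, the top being Bpifb1, a secreted airway protein.

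In the axoneme list, no other gene came near the difference of Dnaic1. The 47 others had a median difference of 0.04 and ranged from -0.23 to 0.29, with Cfap43, a cilia and flagella protein, at the top. Dnah5 and Dnah9, heavy chains of the outer dynein arm in which the Dnaic1 protein works, differed by 0.04 and 0.15. The 19 genes of intraflagellar transport and the BBSome had a median of 0.05. Outside these lists, Cplane1, a gene of ciliogenesis ranked 7 among increases, read 6.46 and 5.92 in Scap-/- and 5.24 and 5.37 in Scap wild type, a difference of 0.88 that was not called (limma adjusted p 0.196). In the lists of the reference genes, 18 other claudin and tight junction genes lay between -0.22 and 0.21, with F11r and Jam3, both junctional adhesion molecules, at the extremes. The 15 other epithelial adhesion and identity genes lay between -0.16 and 0.23, with Trp63, the basal cell transcription factor p63, and Nectin3, a nectin of adherens junctions, highest at 0.23 and 0.18.

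**Figure D2:**
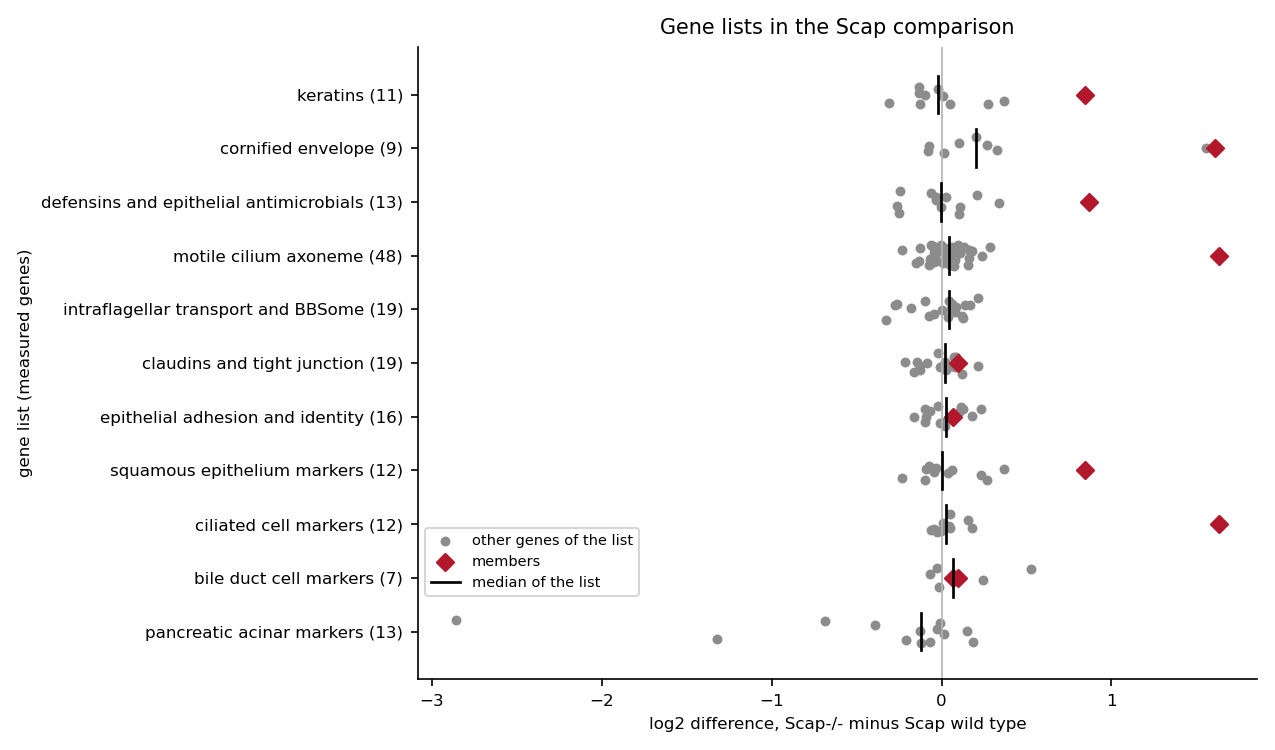
Log2 difference, Scap-/- minus Scap wild type (horizontal axis), of the measured genes of 11 lists (vertical axis, number of genes in brackets). Red diamonds are the 6 genes of interest, grey dots other genes, scattered vertically for legibility, and black bars list medians including those 6 genes. Krt4, Lce3f, Defb4 and Dnaic1 lie to the right of their lists, with Lce3a beside Lce3f, and the pancreatic acinar list extends to -2.86.

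Markers of other cell types were summed on each array, with the 6 genes left out, because RNA of another epithelium would carry its own markers. The sum over 11 squamous epithelium markers was 881 to 934 in Scap-/- and 893 to 940 in Scap wild type. The sum over 11 ciliated cell markers was 888 to 937 against 894 to 931. Both ranges overlapped, and 0 of 11 genes in either list was called. A sum is carried by its brightest genes, however, and Dapl1 alone made up 73.0% to 77.1% of the squamous sum. Without Dapl1 the other 10 squamous markers summed to 222 to 232 in Scap-/- and 219 to 222 in Scap wild type, without overlap. Without Spag17, the brightest ciliated cell marker, the other 10 summed to 635 to 647 against 633 to 633, also without overlap. The part of squamous or ciliated cells in the differences of the 4 genes was not tested.

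For bile duct cells, the sum over 5 markers was 510 to 568 in Scap-/- and 529 to 540 in Scap wild type. The 7 intestinal and gallbladder markers summed to 328 to 363 against 326 to 376. Gcnt3 alone made up 67.9% to 72.3% of that sum. Without Gcnt3 the other 6 summed to 98 to 101 in Scap-/- and 105 to 112 in Scap wild type, without overlap. The 6 mesothelium markers summed to 694 to 710 against 666 to 684, ranges that did not overlap, with 0 of 6 called and a median difference of 0.11. Podxl made up 50.7% to 56.6% of the mesothelium sum, and the other 5 summed to 311 to 345 against 293 to 306, also without overlap. The sum over 13 pancreatic acinar markers was lower in Scap-/-, at 662 to 710 against 966 to 1069. In that list Cpa1, a pancreatic carboxypeptidase, fell by 2.86 and Gp2, a zymogen granule protein, fell by 1.32. None of the 13 was called higher, and 3 of the 13 had positive differences. The part of RNA from any of these cell types in the differences of the 4 genes was not tested.

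**Figure D3:**
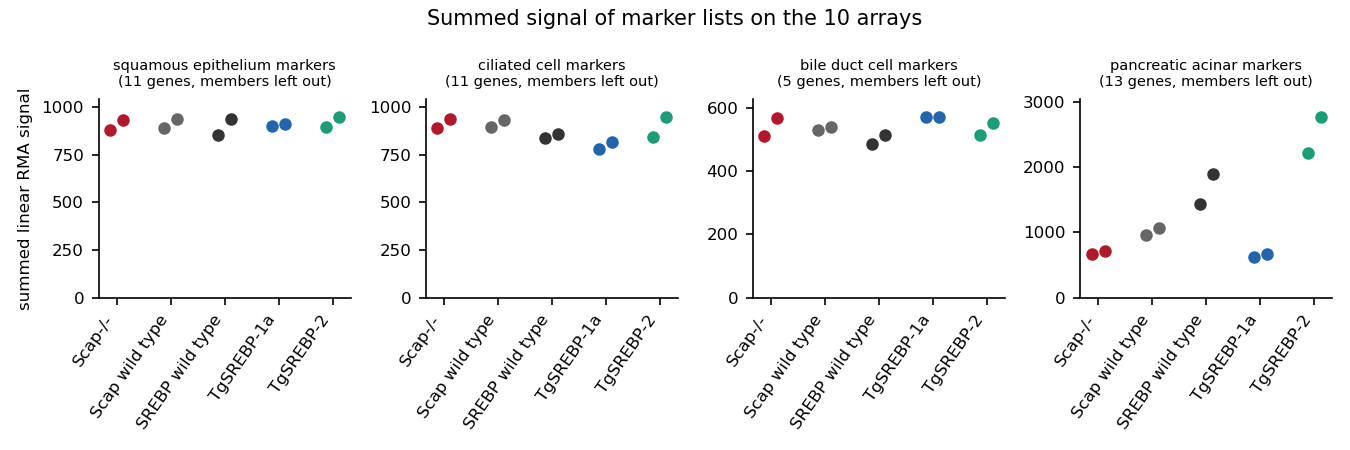
Summed linear RMA signal (vertical axis, from 0) of 4 marker lists on the 10 arrays, by group, with the 6 genes of interest left out. In each group the lower of the 2 arrays is drawn on the left. The squamous and ciliated sums, with all listed genes, overlap between Scap-/- and Scap wild type, whereas the acinar sum is lowest in Scap-/- and TgSREBP-1a and reaches 2769 in TgSREBP-2.

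The SREBP transgenic livers had no part in picking the genes, and there the differences could be tested. Of the 9 probe sets, 1 was called between TgSREBP-1a and SREBP wild type, against 123 of 11868 (1.04%) over the array, and it was a lower call, as were 0.354% of all probe sets. This was Epcam 170480_at, which read 7.82 and 7.87 in TgSREBP-1a and 8.52 and 8.45 in SREBP wild type. The groups did not overlap, as was true of 39.4% of all probe sets. Epcam 170480_at fell by 0.63 (SE 0.09, 95% interval -0.83 to -0.44), or 1.55-fold, with an adjusted p of 0.00538 in limma. Without TgSREBP-1a replicate 1 the difference was -0.61 and the probe set was no longer called. That fit leaves 1 array in the group, so the lost call does not show that the value rests on the array left out. Over all alternatives the difference ran from -0.67 to -0.60.

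The other Epcam probe sets did not show this decrease. Probe set 134369_i_at read 7.29 and 7.22 in TgSREBP-1a and 7.21 and 7.20 in SREBP wild type, a difference of 0.05 (95% interval -0.20 to 0.30). Probe set 134370_f_at read 3.89 and 3.87 against 3.93 and 3.80, a difference of 0.01 (95% interval -0.24 to 0.26). Both intervals exclude a decrease as large as that of 170480_at, so the probe sets annotated to Epcam disagreed. Which transcripts each one detects was not tested.

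In TgSREBP-2, Epcam 170480_at read 7.90 and 7.99, also below both SREBP wild type arrays. The groups did not overlap for 35% of all probe sets. The difference of -0.54 (95% interval -0.74 to -0.34) had a limma adjusted p of 0.0587 and was below the 1.5-fold floor, so it was not called. In that comparison 0 of the 9 probe sets was called, against 14 of 11868 (0.118%), and 752 probe sets had an unadjusted p under 0.05. The comparisons of TgSREBP-1a and TgSREBP-2 share the SREBP wild type arrays. Set directly against each other, the transgenic groups differed at Epcam 170480_at by -0.09 (95% interval -0.29 to 0.10), with a limma adjusted p of 0.932.

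The remaining Epcam and all Cldn7 values in TgSREBP-2 were close to SREBP wild type. Epcam 134369_i_at read 7.36 and 7.03, a difference of -0.01, and 134370_f_at read 3.86 and 3.64, a difference of -0.11. Cldn7 129927_i_at read 8.30 and 8.45 in TgSREBP-2, 8.61 and 8.39 in TgSREBP-1a, and 8.47 and 8.34 in SREBP wild type. The arrays of these 3 groups overlapped, with differences from wild type of -0.03 and 0.10. Cldn7 129928_f_at read 5.37 and 5.20, 5.20 and 5.16, and 5.23 and 5.18 in the same order, with differences of 0.08 and -0.03 from wild type.

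Krt4 was lower in both transgenic groups than in SREBP wild type without passing the test. The difference was -0.52 (95% interval -0.76 to -0.27, limma adjusted p 0.0546) in TgSREBP-1a and -0.48 (95% interval -0.73 to -0.24, limma adjusted p 0.248) in TgSREBP-2. Both were under the 1.5-fold floor, at 1.43-fold and 1.40-fold. No array of either transgenic group reached the wild-type ones, but such separation was common. It held for 39.4% of all probe sets in the TgSREBP-1a comparison and 35% in the TgSREBP-2 comparison. Without SREBP wild type replicate 1, Krt4 was called in TgSREBP-1a at -0.64, with a limma adjusted p of 0.0487.

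Dnaic1, Lce3f and Defb4 were not called in either transgenic group. Dnaic1 differed from SREBP wild type by -0.26 (95% interval -0.59 to 0.06) in TgSREBP-1a and by 0.22 (95% interval -0.11 to 0.54) in TgSREBP-2. Between the transgenic groups Dnaic1 differed by -0.48, TgSREBP-1a minus TgSREBP-2 (95% interval -0.81 to -0.15), with non-overlapping arrays, as for 37% of probe sets, and a limma adjusted p of 0.337. That comparison called 61 of 11868 probe sets (0.514%) and 0 of the 9, with 919 at an unadjusted p under 0.05.

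Lce3f differed from SREBP wild type by -0.09 (95% interval -0.61 to 0.43) in TgSREBP-1a and -0.10 (95% interval -0.62 to 0.42) in TgSREBP-2. These intervals are wide because the fit shares 1 estimate of the spread over the 5 groups. Lce3f duplicates were 0.89 apart in Scap-/- and 0.54 in TgSREBP-2, but 0.002 in TgSREBP-1a and 0.08 in SREBP wild type. Defb4 differed by -0.21 (95% interval -0.45 to 0.02) and -0.08 (95% interval -0.31 to 0.15). None of the 4 picked genes was called in the livers with excess nuclear SREBP.

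**Figure D4:**
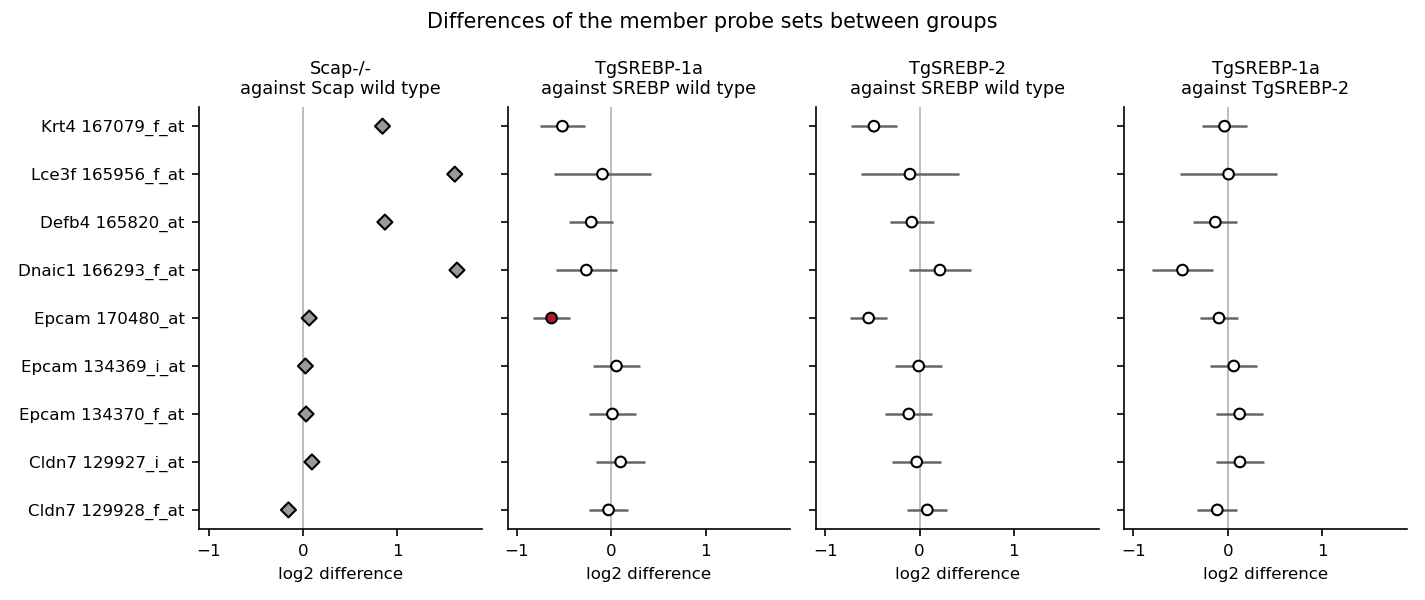
Log2 differences (horizontal axes) of the 9 probe sets in 4 comparisons. Diamonds in the first panel are the Scap differences on which 4 genes were picked, drawn without an interval or test; circles in the other panels are limma estimates with 95% intervals, filled red where called. The red circle is Epcam 170480_at in TgSREBP-1a, at -0.63.

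Calls in the related lists stand beside 1.04% of all probe sets called in TgSREBP-1a and 0.118% in TgSREBP-2. In TgSREBP-1a and TgSREBP-2 there was no other called gene among the keratins, cornified envelope, defensin, axoneme, intraflagellar transport, tight junction or adhesion lists. In TgSREBP-1a the 10 other keratins ranged from -0.94, for Krt36, to 0.14, with a median of -0.10. The 47 other axoneme genes had a median of -0.04, and the median over all probe sets was -0.03. Dynlt3, a light chain of cytoplasmic dynein, rose by 1.84 in TgSREBP-1a at 1 of its 3 probe sets (limma adjusted p 0.0413), and the other probe sets differed by -0.27 and -0.04. Anxa4, an annexin of bile duct cells, rose by 0.84 at 1 of 3 probe sets, with a limma adjusted p of 0.0201.

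Summed cell type markers also differed in TgSREBP-1a, in different directions. The 5 bile duct markers other than Epcam and Cldn7 summed to 570 to 571 in TgSREBP-1a against 485 to 515 in SREBP wild type, and 5 of 5 had positive differences. Of these differences, Anxa4 had the largest, 0.84, while the median was 0.12 and the lowest 0.03. The 13 acinar markers summed to 625 to 663 in TgSREBP-1a, 1431 to 1894 in SREBP wild type and 2217 to 2769 in TgSREBP-2. Cpa1, Gp2 and Cuzd1 fell in TgSREBP-1a by 4.39, 1.48 and 0.66, and Gp2 and Cuzd1 rose in TgSREBP-2 by 1.08 and 1.12. The 16 hepatocyte markers summed to 3685 to 3811 in TgSREBP-1a against 4036 to 5584 in SREBP wild type, with a median difference of -0.36, 6 called lower and 1 higher. All 7 called were genes put in that list with results known, and 0 of the other 9 was called. Epcam 170480_at was lower in both transgenic groups. The part of these cell types in the Epcam difference was not tested.

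Across the 10 arrays, the levels of the 4 picked genes correlated, which the choice of the genes for their Scap-/- level partly fixes. Below Scap-/- the order of the groups differed between them. SREBP wild type came next for Krt4, Lce3f and Defb4, and TgSREBP-2 came next for Dnaic1. Pearson correlations were 0.92 for Lce3f with Defb4, 0.88 for Krt4 with Defb4, 0.86 for Defb4 with Dnaic1 and 0.74 for Lce3f with Dnaic1. The arrays are 5 pools in duplicate, so these are descriptions over few independent points. Epcam 170480_at correlated at 0.73 with Krt4 and at -0.64 with Cldn7 129927_i_at.

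The genes with the most similar pattern were sought among 558 probe sets whose group means spanned at least 0.5. A gene high in Scap-/- can pass that filter through the same arrays on which the picked genes were chosen. The span of Lce3a, 1.56, and that of Alcam, 0.52, equal their Scap differences. Likeness to the picked genes is thus partly fixed by their choice and is a description. Lce3a was the closest to Lce3f (0.88), Defb4 (0.92) and Dnaic1 (0.91), and Cplane1 was among the closest 3 to each of these, at 0.76, 0.74 and 0.90. The remaining places went to Alcam for Lce3f (0.76), Sytl1 for Defb4 (0.72) and Bms1 for Dnaic1 (0.90). Krt4 was closest to Slc39a4 (0.87), Mymx (0.84) and Lpin3 (0.84). Epcam 170480_at was closest to Sun3 (0.96), Tpra1 (0.96) and Prl8a2 (0.95), and Cldn7 129927_i_at to Dtymk (0.91), Kif21a (0.89) and Dact2 (0.88).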

How the data were processed

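The deposited values are log2 expression per probe set, made by the authors with RMA per the submitters' processing notes (no version is given). The log2 scale was taken from their range of 2.17 to 13.3. The series' design text names Microarray Suite 5.0. Of 11934 probe sets, 66 controls were left out and 11868 tested. GEO's platform annotation gave 1 symbol for 7717, several for 150 and none for 4001.

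One fit in limma 3.58.1 (R 4.3.3; lmFit and eBayes) held the 10 arrays and 5 groups, with 5 residual and 6.26 prior degrees of freedom, and was tested on simulated data. Tests were two-sided, adjusted by Benjamini-Hochberg over all tested probe sets in each comparison. A gene of a list is represented by its probe set with the highest mean.

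Named genes are the members, list genes called in a comparison, the 2 largest absolute Scap differences in each of 6 lists, and the 3 closest patterns per member. Called hepatocyte list genes, added with results known, are not named. Lce3b, Tgm1, Dnah5, Dnah9, Hpx, Fga, Ahsg, Serpina1a, Dapl1, Spag17 and Nudt3 were named after their values were seen. So were Abhd2, Cyp2c55, Ifi27l2b, Gcnt3, Podxl and Krt36. The members and lists were chosen with earlier results of these data known. Promoter windows were searched with Python 3.11.15. Alternatives were other normalisations, filters, variance models and array sets, a replicate block and leaving out each array. The array number limits the precision.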

Additional observations from a re-analysis of the deposited data

How the results depend on the processing

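Wherever they could be computed, the Scap differences were 0.77 to 0.91 for Krt4, 1.16 to 2.05 for Lce3f, 0.76 to 0.97 for Defb4 and 1.40 to 1.86 for Dnaic1. The sign of these could not reverse when an array was left out. All Scap-/- arrays of the picked genes lie above their Scap wild type arrays, as the choice of the genes favours. The Scap differences of Epcam 134369_i_at (-0.03 to 0.08) and 134370_f_at (-0.09 to 0.15) changed sign between settings. Counts of called probe sets moved more. With plain _at probe sets alone they were 4 for Scap-/-, 67 for TgSREBP-1a, 4 for TgSREBP-2, 36 between the transgenic groups and 5 between the wild types, where fewer probe sets were tested. With the arrays of the same study alone, 4 were called for Scap-/-. With the replicate number as a block, they were 19, 186, 37, 96 and 36, and Epcam 170480_at in TgSREBP-1a had a limma adjusted p of 0.003. The labels do not say that a replicate number marks anything shared. Deviations of same-numbered arrays correlated at 0.20 to 0.33 in 7 of 10 pairs of groups and at -0.17 to -0.11 in the other 3, all with TgSREBP-2, so the numbers were not taken as pairing. Leaving out each array gave 3 to 11, 40 to 134, 7 to 17, 23 to 65 and 3 to 10, and -0.67 to -0.60 for Epcam 170480_at in TgSREBP-1a, not called without TgSREBP-1a replicate 1 (-0.61). Of the small differences, Cldn7 129928_f_at in TgSREBP-1a reversed under quantile normalisation (0.014). Leaving out single arrays reversed Cldn7 129927_i_at in TgSREBP-2 (-0.11 to 0.046) and TgSREBP-1a (-0.010 to 0.21), Epcam 134370_f_at in TgSREBP-1a (-0.053 to 0.077), and Epcam 134369_i_at (-0.17 to 0.16) and Lce3f (-0.37 to 0.17) in TgSREBP-2. Between the transgenic groups it reversed Krt4 (-0.10 to 0.033), Lce3f (-0.26 to 0.28) and Epcam 134369_i_at (-0.10 to 0.23). Among the other genes of the epithelial and ciliary lists, Lce3a was called in Scap-/- under median centring (1.57), the block (1.56) and without Scap-/- replicate 2 (2.07). Krt36 was called in TgSREBP-1a (-0.94) with the arrays of the same study alone, the block and without either Scap wild type array. The causes were not tested. Another background correction and a slide block were not run, since the values are summarised and no slide is given.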

Other observations

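The probe sets of the 4 picked genes carry numbers from one part of the array's naming, a point noticed after their values were seen. They lie between 165820 and 167079, a range with 1260 tested probe sets (10.6%). The 4 genes set this range, so they lie in it by construction. Of the 5 other probe sets that were higher in Scap-/- by at least 0.8, 2 fall in it, and of the 11 that were lower by at least 0.8, 0 do. The median Scap difference within the range was 0.01.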
